A study of Mus musculus with 32 samples.

Results

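Mutations in 40 genes outside the core set of myelin genes cause Charcot-Marie-Tooth disease (CMT) or a closely related inherited neuropathy, and the transcripts of their mouse counterparts were followed in sciatic nerve. The genes came from a list of symbols matched to the Ensembl gene identifiers of the expected-count table, and no measured value was used to choose them. All 40 were among the 45706 genes of the table, and all 40 passed the filter on low counts that left 15403 genes for testing. By the human disease, 12 were grouped as Schwann-type, whose mutations cause demyelinating forms, 4 as intermediate, and 24 as axonal-type, a class that here also takes in motor, sensory and spastic forms. Several of these genes cause more than a single form, so the classes are approximate.

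The tissue came from mice aged 6 months and was read by polyA RNA sequencing in 32 libraries, and the study set each mutant genotype against wild type (WT). There were 7 WT libraries (4 labelled female, 3 male), 9 labelled Sipa1l2-/- (4 female, 5 male), 8 C3-PMP22 (4 female, 4 male) and 8 C3-PMP22 Sipa1l2-/- (5 female, 3 male), the last called the double mutant here. C3-PMP22 mice carry copies of the human PMP22 gene as a model of CMT1A, the demyelinating form caused by an extra copy of that gene. Sipa1l2, an adaptor protein studied here as a modifier of CMT1A, is disrupted in the Sipa1l2-/- animals, and neither line is described as restricted to a cell type. The sources used here do not state the strain background, the litters or the exact allele.

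In a nerve, Schwann cells wrap axons in myelin and depend on phosphoinositide phosphatases and endosomal sorting to move membrane and receptors, which is where many demyelinating disease genes act. Axonal forms strike the longest axons and involve mitochondrial fusion, transport along microtubules, transfer RNA charging, small heat shock proteins and the endoplasmic reticulum. Sensory and motor neurons keep most of their messenger RNA in cell bodies outside the nerve, so a transcript counted in sciatic nerve comes mainly from Schwann cells, fibroblasts, vessels, immune cells and attached tissue.

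Library totals ranged from 11030976 to 16990990 expected counts. As a check of the labels, Sipa1l2 had a median of 73.4 CPM (counts scaled to the TMM-adjusted library size) in WT and of 93.8 CPM in the group labelled Sipa1l2-/-, a log2 fold change of 0.05 ± 0.23 (SE, n = 9 against 7, edgeR quasi-likelihood test, adjusted p = 0.99). Its median was 82.3 CPM in C3-PMP22, and the double mutant had 71.7. The sources used here do not state which part of the gene is deleted, so genotypes are those of the labels. The mouse Pmp22 count of C3-PMP22 differed from WT by -0.25 ± 0.29 on the log2 scale (adjusted p = 0.67), and whether human PMP22 reads enter it is not given. C3-PMP22 samples 7 and 8 are labelled female, and their sex-linked transcripts are of the male type. The table's headers give animals plain numbers (19 libraries) or numbers with a G (13 libraries), without saying what the G means. In the double mutant all 5 females have plain numbers and all 3 males have G numbers, so that number series and sex cannot be told apart there. Summed over 15 skeletal muscle genes, the level ran from 39.3 to 114035 CPM, and over 15 myelin genes from 5044 to 32487 CPM. Unlike the other CPM values, sums over marker genes are scaled to library totals without the TMM adjustment. In these bulk libraries fewer cells of a type and less RNA per cell cannot be told apart.

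The neuropathy genes spanned a wide range of levels in WT nerve. Per kilobase of exon, Ndrg1, a protein of Schwann cell trafficking mutated in a demyelinating form, was highest with a WT median of 261 CPM per kilobase. Rab7, the late endosome GTPase, followed at 102, the small heat shock protein Hspb1 at 66.1, the nucleotide enzyme Prps1 at 40.5 and the dynein heavy chain Dync1h1 at 40.3. At the other end, Gdap1, a mitochondrial fission factor, had 0.0814 CPM per kilobase, the ER-shaping GTPase Atl1 1.34, the mitochondrial enzyme Dhtkd1 1.98, Fgd4 2.34 and the G protein subunit Gnb4 2.66. The class medians were 11.8 for Schwann-type, 11.9 for intermediate and 21.1 for axonal-type genes, against 15.3 over the 40 and 4.31 over all tested genes. Gdap1 was the single member near the detection limit in many libraries, with raw counts from 2 to 345.

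**Figure D1:**
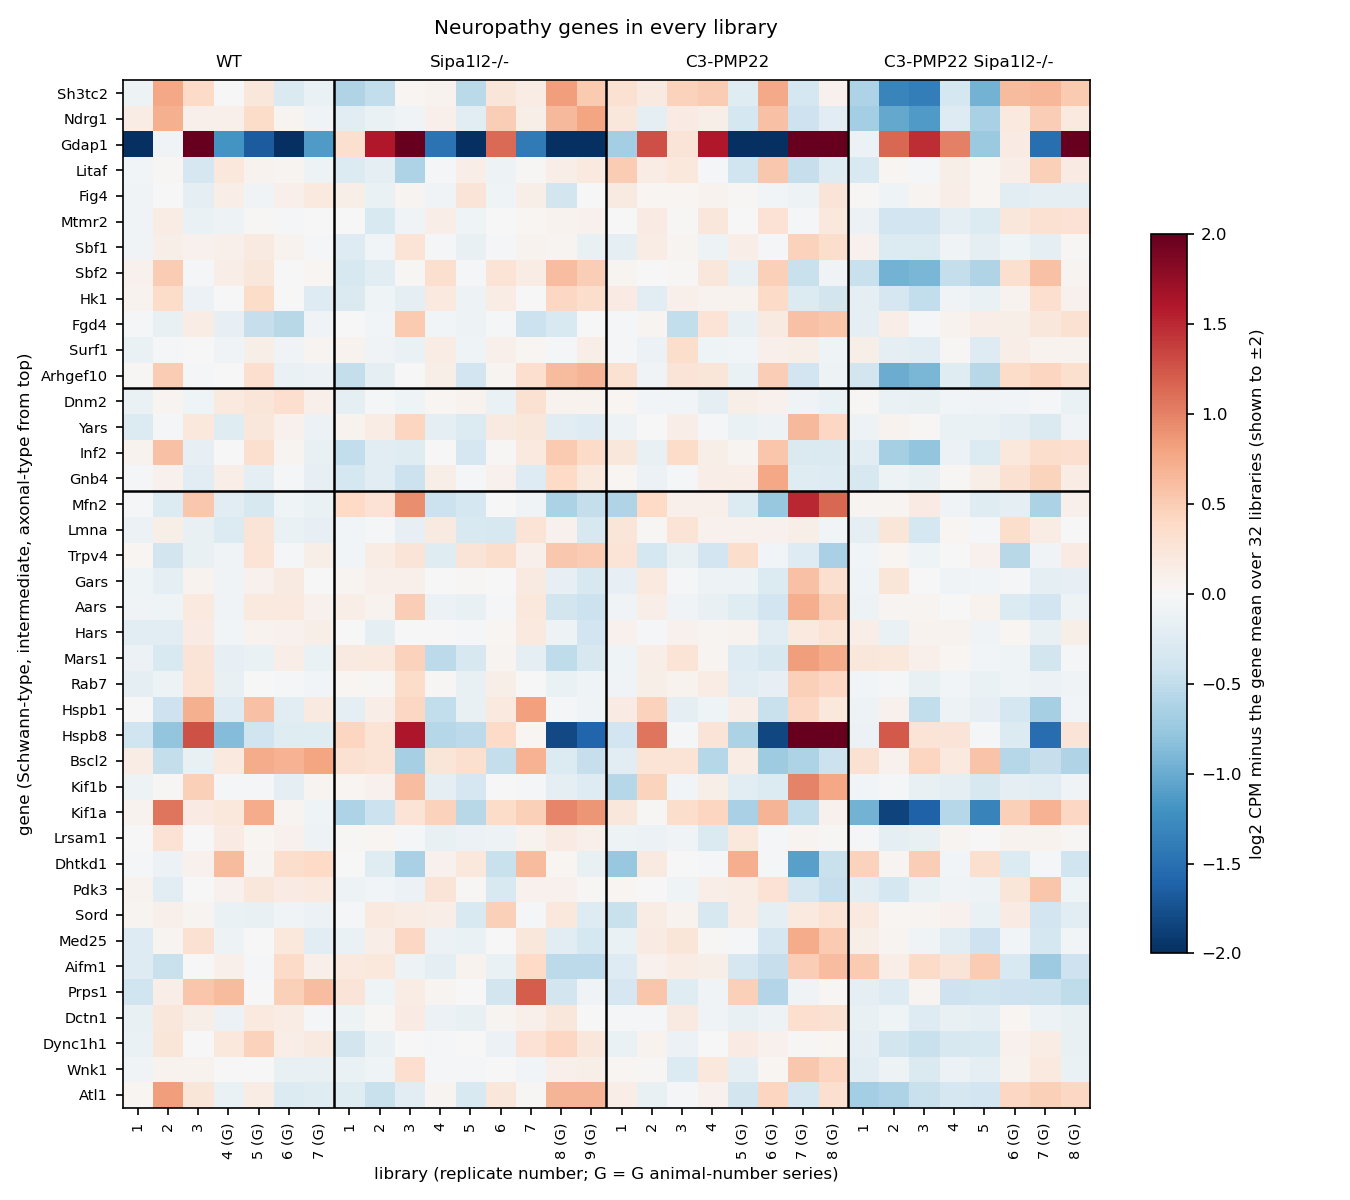
Heat map of the 40 neuropathy genes (vertical axis, by disease class) in the 32 libraries (horizontal axis, by genotype, with the G number series marked), as log2 CPM minus each gene's mean over all libraries. Gdap1, Hspb8 and Kif1a show the widest swings. Those of Gdap1 and Hspb8 occur within every genotype, and the 4 lowest libraries for Kif1a are double mutants.

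No neuropathy gene was called in C3-PMP22 against WT at an adjusted p under 0.05 (edgeR), where 0.688% of all tested genes were called. At an unadjusted p under 0.05 there were 4 of 40 against 18.1% of all genes, and DESeq2 also called none of the 40. The median log2 fold change was 0.05 over the 40 and 0.04 over all tested genes, with 0.05 for Schwann-type and 0.04 for axonal-type genes. Of the fitted 95% intervals, 29 of 40 lay within a 1.5-fold change in either direction and 38 within 2-fold.

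Fgd4, which activates Cdc42 in Schwann cells and is mutated in a demyelinating form, lies on chromosome 16 (16416917 to 16600549, GRCm38, minus strand). Its lowest, median and highest CPM were 31.0, 41.1 and 50.1 in 7 WT libraries and 32.4, 49.3 and 68.4 in 8 C3-PMP22 libraries. Of the 8, 7 lay above the WT median and 4 above the highest WT library, so the groups overlapped. Its log2 fold change was 0.33 ± 0.14 (SE, adjusted p = 0.21, edgeR). The highest values in C3-PMP22, 68.4 and 66.7 CPM, came from samples 7 and 8, whose sex-linked transcripts go against their label. Within the plain number series the fold change was -0.12, and the sign changed in 1 of 48 alternatives.

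Bscl2 encodes seipin, a protein of lipid droplet formation mutated in motor neuropathy (chromosome 19, 8837467 to 8848683, plus strand). It had 59.3, 95.2 and 142.6 CPM in WT and 50.6, 66.6 and 100.7 in C3-PMP22. The ranges overlapped, with 3 of 8 C3-PMP22 libraries under the lowest WT library. The log2 fold change was -0.52 ± 0.23 (adjusted p = 0.24, edgeR). The score of 10 adipocyte genes was also lower in C3-PMP22, with medians of -0.37 against 0.83 in WT. That order held among G numbers (medians of -0.91 against 0.92 in WT). Among plain numbers it was reversed (-0.086 against -0.41 in WT). With terms for the myelin, muscle and adipocyte scores in the fit, the log2 fold change of Bscl2 was -0.16 (adjusted p = 0.74, and 0.027 to 1.0 over all alternatives).

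Gdap1 (chromosome 1, 17145362 to 17164271, plus strand) had 0.271, 0.630 and 7.89 CPM in WT and 0.160, 2.61 and 31.5 CPM in C3-PMP22. Its highest values in C3-PMP22, 31.5 and 26.2 CPM, came from samples 8 and 7, whose sex-linked transcripts go against their label. The log2 fold change was 2.42 ± 1.10 (adjusted p = 0.25, edgeR) with these samples and 0.05 without them (adjusted p = 0.99). Hspb8, a small heat shock protein mutated in distal motor neuropathy, went with it at a log2 fold change of 1.04 ± 0.55 (adjusted p = 0.31) and of -0.02 without samples 7 and 8. Those 2 libraries also had the highest scores of 15 skeletal muscle genes, 4.54 in sample 7 and 4.10 in sample 8. With terms for the 3 scores the fold changes were 0.55 for Gdap1 (adjusted p = 0.82) and 0.32 for Hspb8 (adjusted p = 0.80). Over all alternatives to the main fit their lowest adjusted p was 0.059 and 0.092. The separate fit by genotype and number series, given below, called Gdap1 in the G series. The other member with a fold change at the lower end was Prps1 at -0.34 ± 0.19 (adjusted p = 0.34).

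No member was called in the libraries labelled Sipa1l2-/- against WT either, a comparison in which 0% of all tested genes were called by edgeR and DESeq2. At an unadjusted p under 0.05 there were 0 of 40 members, against 5.21% of all genes. The median log2 fold change was -0.02 over the 40 and 0.02 over all genes, with -0.02 for Schwann-type and -0.03 for axonal-type genes. All but 2 of the 40 intervals lay within a 2-fold change, and 33 lay within 1.5-fold.

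Of the members with the smallest p there, Trpv4, a calcium-permeable channel mutated in motor and sensory neuropathy, had 10.95, 13.7 and 17.1 CPM in WT and 12.0, 16.9 and 20.5 in Sipa1l2-/-. The groups overlapped, with 7 of 9 mutant libraries above the WT median. Its log2 fold change was 0.24 ± 0.13 (adjusted p = 0.96, edgeR). Dync1h1, the heavy chain of the motor that carries cargo towards the cell body, had 508, 631 and 766 CPM in WT and 433, 556 and 737 in Sipa1l2-/-, a log2 fold change of -0.14 ± 0.09 (adjusted p = 0.96). Dnm2, the GTPase that pinches off endocytic vesicles, had 81.8, 96.3 and 112.3 CPM in WT and 79.1, 91.7 and 110.5 in Sipa1l2-/-, a log2 fold change of -0.10 ± 0.07 (adjusted p = 0.96). Both groups overlapped for both genes. The outermost fold changes were 0.96 ± 1.00 for Gdap1, -0.28 ± 0.22 for Bscl2 and -0.24 ± 0.20 for Dhtkd1. That of Gdap1 was -0.57 without Sipa1l2-/- sample 3 and 2.52 without WT sample 3.

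In the double mutant against WT again 0 of 40 members were called by edgeR, with 1.38% of all tested genes called (0.863% lower). At an unadjusted p under 0.05 there were 8 of 40 against 14.7% of all genes, and DESeq2 called 2 members, Prps1 and Dync1h1, both lower. The share of all genes that DESeq2 called there is not given, so its 2 members cannot be set against it. The log2 fold change was negative for 30 of 40 members, with a median of -0.09 against 0.01 over all genes. The medians were -0.11 for Schwann-type and -0.08 for axonal-type genes. This comparison and both others use the same 7 WT libraries.

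Dync1h1 (chromosome 12, 110601452 to 110666945, plus strand) came nearest to the threshold. Against 508, 631 and 766 CPM in WT, the double mutant had 409, 467 and 618 CPM. All 8 double mutant libraries lay under the WT median and 6 under the lowest WT library, while the upper 2 overlapped WT. The log2 fold change was -0.34 ± 0.10 (adjusted p = 0.066, edgeR), and DESeq2 gave -0.35 with an adjusted p of 0.012, the lowest of 48 alternative fits, in which it went up to 0.37. The fit called it when WT sample 1, WT sample 3 or double mutant sample 7 was left out.

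Prps1 makes the ribose donor of nucleotide synthesis and is mutated in an X-linked axonal form (chromosome X, 140456613 to 140476140, plus strand). It had 44.0, 80.7 and 90.7 CPM in WT and 40.8, 44.0 and 60.8 in the double mutant. All 8 libraries lay under the WT median and 4 under the lowest WT library. The log2 fold change was -0.62 ± 0.19 (adjusted p = 0.10, edgeR), and DESeq2 gave -0.63 with an adjusted p of 0.049, within a range of 0.032 to 0.81 over the alternatives.

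Dnm2 had 81.8, 96.3 and 112.3 CPM in WT and 81.1, 85.4 and 90.8 in the double mutant, with all 8 libraries under the WT median and 6 inside the WT range. Its log2 fold change was -0.18 ± 0.07 (adjusted p = 0.20). The lowest fold change of the list was that of Kif1a, a kinesin that carries synaptic vesicle precursors, at -0.78 ± 0.32 (adjusted p = 0.23). Gdap1 at 0.69 ± 1.04 and Fgd4 at 0.27 ± 0.14 had the highest.

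**Figure D2:**
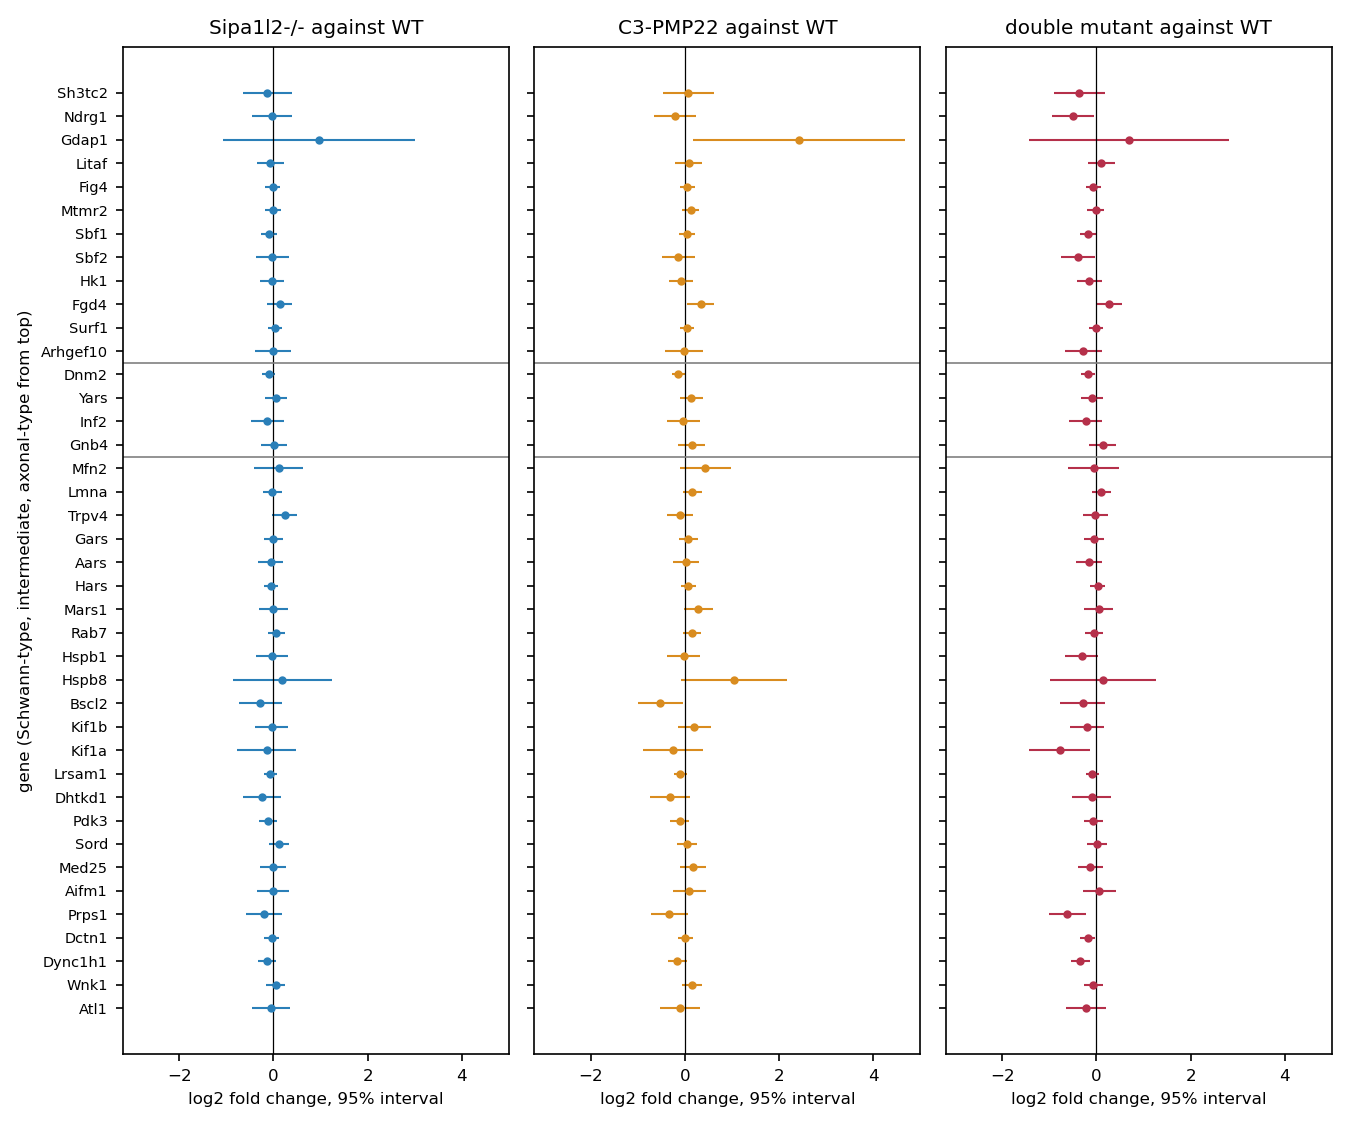
Log2 fold changes (horizontal axis) of the 40 genes (vertical axis) for C3-PMP22, Sipa1l2-/- and the double mutant against WT in 3 panels, with points for the edgeR estimates and bars for 95% intervals. All 40 estimates in each panel miss the adjusted threshold, and the wide bars of Gdap1 and Hspb8 stand out from the narrow ones of genes such as Lrsam1 and Dnm2.

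The remaining genotype comparisons gave no member call in the main fit. In the double mutant against C3-PMP22, 0% of all genes were called by edgeR and 11 genes, with no member among them, by DESeq2. At an unadjusted p under 0.05 there were 7 members, against 8.07% of all genes. The lowest log2 fold changes were -1.72 ± 0.96 for Gdap1 and -0.90 ± 0.52 for Hspb8, and both turned positive (0.92 and 0.32) without C3-PMP22 samples 7 and 8, while Bscl2 (0.23 ± 0.23) and Dhtkd1 (0.21 ± 0.20) were highest. In the double mutant against Sipa1l2-/-, 0.721% of all genes were called (0.37% higher and 0.351% lower). At an unadjusted p under 0.05 there were 7 members against 8.69% of all genes, and DESeq2 called none. Kif1a (-0.63 ± 0.30) and Ndrg1 (-0.47 ± 0.20) were lowest there, and Litaf (0.16 ± 0.13), a sorting protein mutated in a demyelinating form, and Dhtkd1 (0.14 ± 0.20) were highest. With terms for the myelin, muscle and adipocyte scores, Kif1a was called there at -0.23 (adjusted p = 0.018, edgeR), and so was Prps1.

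With both transgenic genotypes set against both others, 3.32% of all genes were called (1.58% higher and 1.75% lower). At an unadjusted p under 0.05 there were 8 members against 17.2% of all genes, and DESeq2 called none. Kif1a (-0.45 ± 0.22) and Prps1 (-0.38 ± 0.13) were lowest, and Gdap1 (1.07 ± 0.74) and Hspb8 (0.49 ± 0.38) highest. With terms for the myelin, muscle and adipocyte scores, Kif1a was called at -0.23 (adjusted p = 0.00083, edgeR), beside Ndrg1 and Gnb4. The share of all genes called in that fit is not given here. The interaction of transgene and Sipa1l2 genotype gave 0% of all genes by edgeR, 3 genes, with no member among them, by DESeq2, and 1 member at an unadjusted p under 0.05 against 6.41% of all genes. Its estimates ran from -2.68 ± 1.39 for Gdap1 and -1.09 ± 0.73 for Hspb8 up to 0.45 ± 0.29 for Dhtkd1 and 0.51 ± 0.32 for Bscl2. For the interaction, 23 of 40 intervals lay within a 1.5-fold change and 33 within 2-fold.

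Across the 32 libraries the genes differed far more in spread than in genotype response. The ratio of the highest to the lowest library was 197 for Gdap1, 22.3 for Hspb8 and 7.53 for Kif1a, and 1.42 for Dnm2 and 1.49 for the ubiquitin ligase Lrsam1. The median residual SD around genotype and sex was 0.27 log2 units for Schwann-type and 0.26 for axonal-type genes, against 0.30 over all tested genes. The spread was therefore set against scores of myelin, skeletal muscle and adipocyte transcripts, each the mean centred log2 CPM of its marker list, in 1 fit with genotype and sex. A coefficient is then the log2 change of a gene per 1 unit of the score. No neuropathy gene is in a marker list, but scores and genes come from the same libraries.

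With the myelin score, 10 of 40 members were higher and 1 lower, against 11.6% and 6.65% of all tested genes (18.3% in both directions). Of the 12 Schwann-type genes 6 were higher, of the 4 intermediate genes 1, and of the 24 axonal-type genes 3. The median coefficients were 0.25, 0.13 and -0.04 for these classes and -0.02 over all genes.

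The kinesin gene Kif1a (chromosome 1, 93015464 to 93101951, minus strand), classed as axonal-type, had the highest coefficient of the 40. It ranged from 290 to 641 CPM in WT with a median of 344, from 200.2 to 606 in Sipa1l2-/- with a median of 398, from 197 to 494 in C3-PMP22 with a median of 342, and from 85.2 to 496 in the double mutant with a median of 183. The groups overlapped, and the 4 lowest libraries of the 32 were double mutants. The coefficient was 1.16 ± 0.05 (adjusted p = 1.4e-15, edgeR), and with the 3 scores in the fit 2.20% of the residual variance was left. Of 8 marker genes of neuronal cell bodies, 2 passed the filter, and the sum of all 8 stayed between 2.73 and 12.5 CPM (without the TMM adjustment).

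Sh3tc2, an endosomal adaptor of Schwann cells mutated in a recessive demyelinating form (chromosome 18, 61953075 to 62024402, plus strand), ranged from 29.9 to 62.1 CPM in WT with a median of 36.3 and from 14.0 to 57.5 in the double mutant with a median of 26.2. The groups overlapped, and 3.17% of its residual variance was left with the scores. Its coefficient was 0.92 ± 0.05 (adjusted p = 4.5e-14). Arhgef10, linked to slowed nerve conduction, followed at 0.66 ± 0.06 (adjusted p = 4.1e-10).

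Ndrg1 at 0.65, the myotubularin-related Sbf2 at 0.57, the phosphoinositide phosphatase Mtmr2 at 0.28 and the hexokinase Hk1 at 0.26 complete the Schwann-type genes that were higher. Mtmr2 and Sbf2 form a complex that acts on endosomal phosphoinositides. Their relatives in the same pathway were flat, with coefficients of -0.03 ± 0.06 for the phosphatase Fig4 and 0.02 ± 0.08 for Sbf1, neither called. Outside the Schwann-type class, the formin Inf2 (0.51), Atl1 (0.54) and Dync1h1 (0.19) were also higher. Without the double mutants 10 members were called with this score, and 2251 of all genes, against 2814 in the main fit.

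The member that was lower with the myelin score was Hspb8, at -0.87 ± 0.27 (adjusted p = 0.023). That call was lost when Sipa1l2-/- sample 5, C3-PMP22 sample 3 or 7, or double mutant sample 2 was left out, and within each number series. It was also lost with no sex term, where the coefficient was -0.44 (adjusted p = 0.25), with the sample number as a block (-0.75, adjusted p = 0.089) and with the score fitted alone (-0.76, adjusted p = 0.11). Over all alternatives the adjusted p went from 0.0015 to 1.0.

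**Figure D3:**
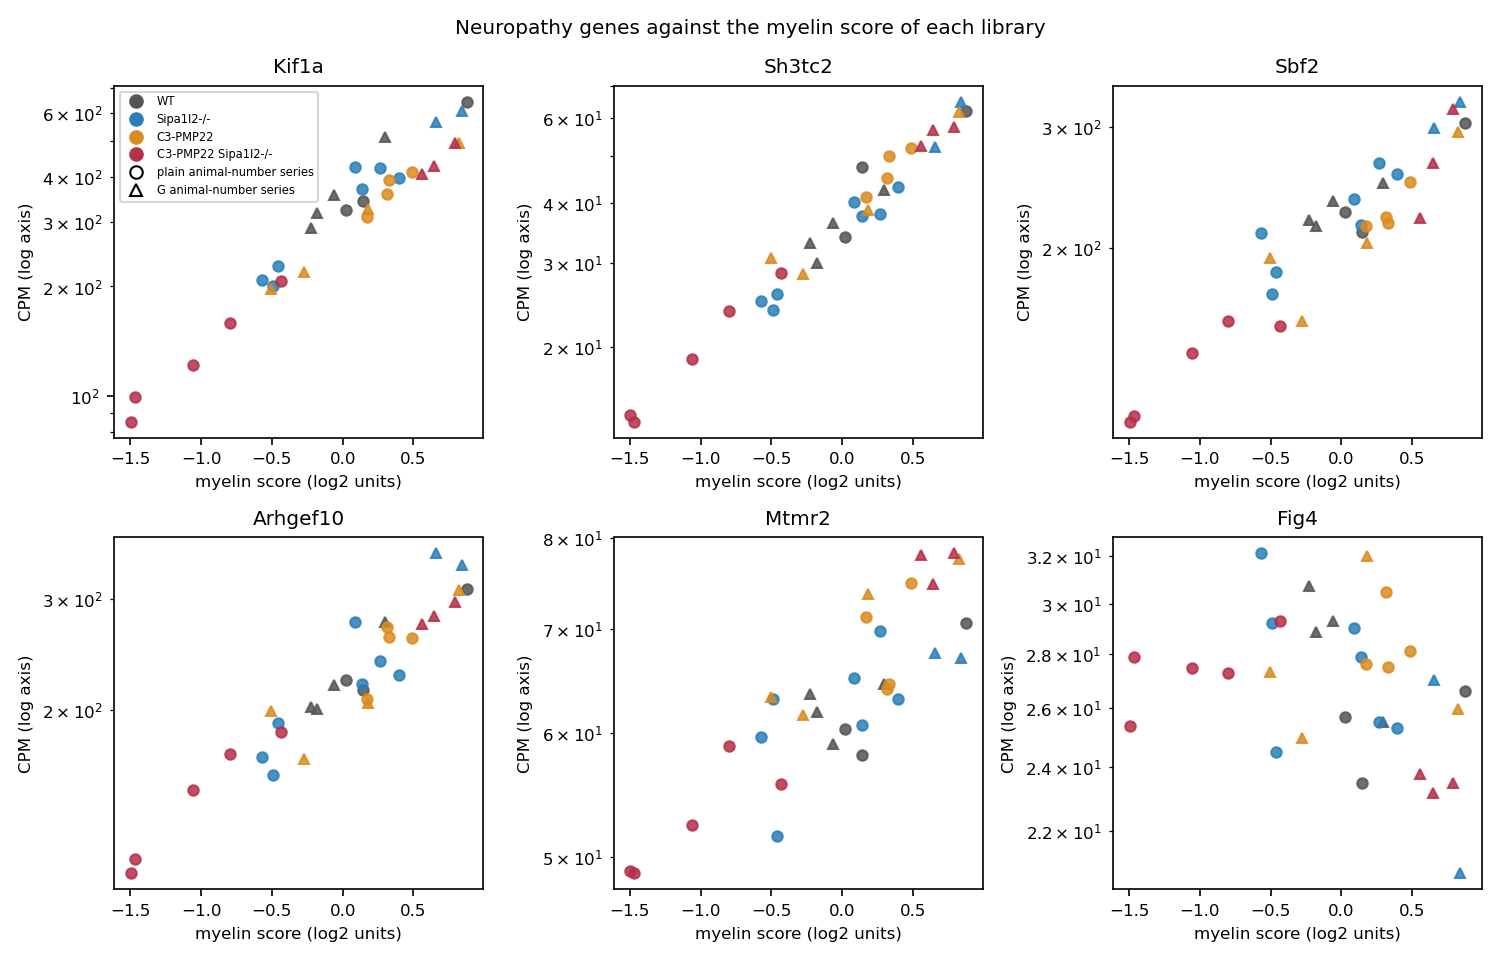
Level of Kif1a, Sh3tc2, Sbf2, Arhgef10, Mtmr2 and Fig4 (vertical axis, CPM on a log scale) against the myelin score (horizontal axis, mean centred log2 CPM of 15 myelin genes) with 1 point per library, coloured by genotype. The first 5 genes climb with the score across genotypes and Fig4 stays between 20.8 and 32.1 CPM.

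Promoters of Kif1a and Mtmr2 are shown because these genes were called with the myelin score. The RefSeq promoter table for GRCm38.p6, with 250 bases before and 50 after a transcript start, held 49 promoters for 34 of the 40 genes, and Sh3tc2, Hars, Ndrg1, Gdap1, Gnb4 and Arhgef10 were not matched. Searched on both strands, the Sox family core (ACAAAG or ACAATG) was in at least 1 promoter of 6 members (Bscl2, Fgd4, Litaf, Lmna, Mtmr2 and Prps1) and in 28.6% of all 32851 promoters. The E-box CACGTG was in promoters of 4 members (Aars, Dhtkd1, Inf2 and Kif1a) and in 7.15% of all promoters. No matches overlap each other in the sequences shown. Sequences are written 5′ to 3′ on the gene's strand, and capitals mark the motif matches: none in the first Kif1a start at chr1:93101825-93102124 (minus), the E-box in the second at chr1:93082431-93082730 (minus), and the Sox core, on the opposite strand, in Mtmr2 at chr9:13748929-13749228 (plus).
Kif1a, first start: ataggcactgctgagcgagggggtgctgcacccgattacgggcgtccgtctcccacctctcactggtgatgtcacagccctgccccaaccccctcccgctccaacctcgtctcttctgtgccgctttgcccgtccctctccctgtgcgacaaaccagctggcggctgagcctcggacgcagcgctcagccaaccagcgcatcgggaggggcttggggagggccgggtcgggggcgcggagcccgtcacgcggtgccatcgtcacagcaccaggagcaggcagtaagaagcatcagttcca
Kif1a, second start: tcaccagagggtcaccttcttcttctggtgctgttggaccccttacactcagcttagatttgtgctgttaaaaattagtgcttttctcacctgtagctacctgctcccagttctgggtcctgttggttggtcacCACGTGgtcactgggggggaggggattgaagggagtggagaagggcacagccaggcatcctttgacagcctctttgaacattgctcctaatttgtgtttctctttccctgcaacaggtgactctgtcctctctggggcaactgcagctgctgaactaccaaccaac
Mtmr2: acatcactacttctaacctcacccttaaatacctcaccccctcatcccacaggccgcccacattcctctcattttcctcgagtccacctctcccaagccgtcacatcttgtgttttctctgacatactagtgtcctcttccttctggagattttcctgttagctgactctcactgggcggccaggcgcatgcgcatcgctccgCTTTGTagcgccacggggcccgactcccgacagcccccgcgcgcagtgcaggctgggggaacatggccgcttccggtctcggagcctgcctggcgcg

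The myelin score itself differed within the double mutant, from -1.50 to -0.43 in the 5 plain-numbered libraries and from 0.56 to 0.79 in the 3 G-numbered ones. WT ran from 0.02 to 0.87 in 3 plain and from -0.23 to 0.30 in 4 G libraries. In a fit with 8 groups of genotype and number series, added after the data had been seen, the double mutant was compared with WT inside each series. Among plain numbers 6 members were lower, against 7.28% of all genes called in either direction. They were Kif1a, Sh3tc2, Ndrg1, Atl1, Sbf2 and Arhgef10.

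Kif1a was at 85.2, 122 and 207 CPM in the 5 plain double mutants and at 323, 344 and 641 in the 3 plain WT libraries. These groups did not overlap, and the log2 fold change was -1.70 ± 0.32 (adjusted p = 0.0013, edgeR). In the G series the double mutant had 407, 427 and 496 CPM and WT 290, 337 and 513, with overlap.

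Sh3tc2 went the same way, with 14.0, 18.9 and 28.5 CPM in the plain double mutants against 34.0, 47.5 and 62.1 in plain WT. Those groups did not overlap either, and the log2 fold change was -1.25 ± 0.25 (adjusted p = 0.0024, edgeR). In the G series Sh3tc2 had 52.5, 56.6 and 57.5 CPM in the double mutant and 29.9, 34.7 and 42.6 in WT. That is the reverse order without overlap, but Sh3tc2 was not called in the G series. How many of all tested genes also lack overlap in groups this small was not counted.

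Of the other members lower among plain numbers, Ndrg1 had a log2 fold change of -1.10, Atl1 of -0.91, Sbf2 of -0.86 and Arhgef10 of -0.76. In the G series 3 members were lower, with 9.28% of all genes called: Bscl2 at -1.24 ± 0.27, Prps1 at -1.09 ± 0.29 and Dnm2 at -0.32 ± 0.10. The adipocyte score was 0.83 to 1.40 in G-numbered WT and -1.08 to -0.22 in G-numbered double mutants, with no overlap.

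The difference between the series, tested directly, was called for 10 of 40 members (16.8% of all genes). Below 0, meaning lower among plain numbers relative to G numbers, were Kif1a, Sh3tc2, Atl1, Ndrg1, Arhgef10, Sbf2, Inf2 and Mtmr2, and above 0 were Bscl2 and Aifm1. With terms for the 3 scores in the fit, 0 of the 40 differences were called, and 3 were called without WT sample 2. Calls over all genes were not counted in those fits, so these counts have no share to be set against. By labelled sex, 5 members were lower in double mutant females (4.82% of all genes called) and none in males (0.461%), and the difference between the sexes was called for none of the 40 (0.00649%).

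C3-PMP22 against WT in the same fit gave no member among plain numbers (0.039% of all genes) and 3 in the G series (5.48%). Gdap1 was higher there at 5.11 ± 1.45, Fgd4 higher at 0.64 ± 0.18 and Bscl2 lower at -0.95 ± 0.24 on the log2 scale. The G-numbered C3-PMP22 libraries include samples 7 and 8. When the G-numbered libraries were fitted alone, Bscl2 was the only member called. The difference between the series was called for 0 of 40 members and 0% of all genes. In Sipa1l2-/- against WT that difference was called for 1 member, Atl1, and 1.11% of all genes.

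The skeletal muscle score was called for 21 of 40 members, 10 higher and 11 lower, against 14.3% and 7.84% of all genes (22.1% in both directions). Without C3-PMP22 sample 6, a library with a muscle score of -4.43, 13 were called, and without C3-PMP22 sample 5, at -6.28, 14 were called. Within the plain number series 9 were called. Calls over all genes also fell in these fits, from 3406 to 2459, 2511 and 2163 in that order.

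Gdap1 had the highest coefficient, 0.51 ± 0.07 per unit of score (adjusted p = 5.4e-06, edgeR), over a score range from -7.40 to 4.54. Hspb8 (chromosome 5, 116408491 to 116422864, minus strand) had 51.1, 70.9 and 227 CPM in WT, 26.7, 96.0 and 288 in Sipa1l2-/-, 26.4, 102 and 589 in C3-PMP22 and 32.6, 102 and 218 in the double mutant. All 4 groups overlapped, and its coefficient was 0.22 ± 0.04 (adjusted p = 0.00013). Mfn2, the outer-membrane fusion protein whose mutations are the most frequent cause of axonal CMT, had 159, 182 and 290 CPM in WT and 117, 213 and 568 in C3-PMP22. Those ranges overlapped, and the coefficient was 0.10 ± 0.02 (adjusted p = 0.0011).

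The other members that were higher with muscle were the transfer RNA synthetases Mars1 and Aars, Rab7, the kinesin Kif1b, the Mediator subunit Med25, Prps1 and the mitochondrial flavoprotein Aifm1, with coefficients from 0.03 to 0.06. The lowest coefficients were those of Gnb4 (-0.05), Trpv4 (-0.04) and Dhtkd1 (-0.04). The calls of Trpv4 and Dhtkd1 were lost without C3-PMP22 sample 5, and that of Dhtkd1 also without C3-PMP22 sample 6, WT sample 1 or Sipa1l2-/- sample 3 or 8. Hk1, Sbf2, Inf2, Pdk3, Ndrg1, Dnm2, Dync1h1 and Litaf were lower with coefficients from -0.03 to -0.02.

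With the adipocyte score 3 members were higher and none lower, against 5.8% and 2.49% of all genes (8.29% in both directions). Prps1 had a coefficient of 0.50 ± 0.07 (adjusted p = 2.1e-05), Dhtkd1 0.45 ± 0.08 (adjusted p = 0.00017) and Bscl2 0.42 ± 0.09 (adjusted p = 0.0018). Bscl2 and Prps1 were also members with low values in the transgenic genotypes above. With terms for the 3 scores the log2 fold change of Prps1 in the double mutant against WT was -0.32 (adjusted p = 0.28).

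**Figure D4:**
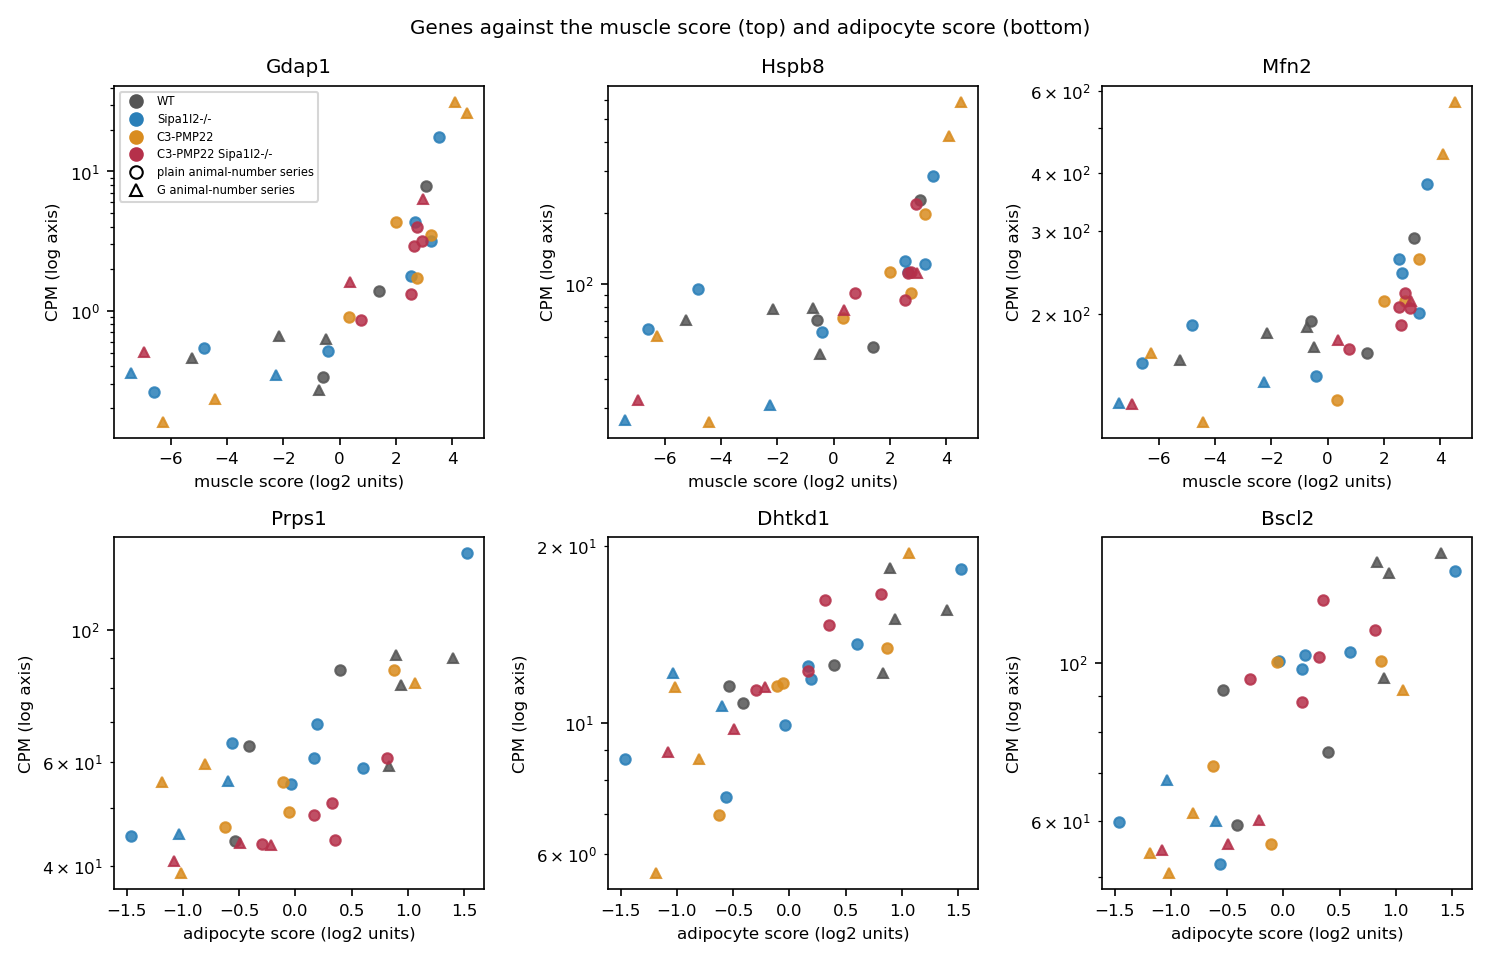
Levels of Gdap1, Hspb8 and Mfn2 (CPM, log axis) against the skeletal muscle score and of Prps1, Dhtkd1 and Bscl2 against the adipocyte score, with 1 point per library coloured by genotype. Gdap1 spans 0.160 to 31.5 CPM along the muscle score over libraries of all 4 genotypes. Whether the slope differs between genotypes was not tested.

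The small heat shock proteins and synthetases are the groups whose promoters are shown next, because stress-response motifs are known for such genes. The heat shock element core (GAANNTTC) was in promoters of 3 members (Fgd4, Hspb1 and Hspb8) and in 7.86% of all promoters. The amino acid response element core (TGATGNAA), bound by Atf4, was in promoters of 4 members (Aars, Gars, Prps1 and Yars) and in 3.97% of all. Capitals mark these cores: GAANNTTC in Hspb8 at chr5:116422815-116423114 (minus) and, with 2 matches, in Hspb1 at chr5:135887669-135887968 (plus), and in Aars at chr8:111033592-111033891 (plus) first the E-box and then 2 response element cores on the opposite strand.
Hspb8: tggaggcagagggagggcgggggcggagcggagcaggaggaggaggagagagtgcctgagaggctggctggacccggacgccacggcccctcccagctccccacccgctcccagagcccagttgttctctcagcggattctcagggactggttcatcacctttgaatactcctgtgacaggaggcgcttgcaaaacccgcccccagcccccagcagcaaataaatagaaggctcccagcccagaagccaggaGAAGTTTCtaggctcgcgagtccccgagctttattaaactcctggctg
Hspb1: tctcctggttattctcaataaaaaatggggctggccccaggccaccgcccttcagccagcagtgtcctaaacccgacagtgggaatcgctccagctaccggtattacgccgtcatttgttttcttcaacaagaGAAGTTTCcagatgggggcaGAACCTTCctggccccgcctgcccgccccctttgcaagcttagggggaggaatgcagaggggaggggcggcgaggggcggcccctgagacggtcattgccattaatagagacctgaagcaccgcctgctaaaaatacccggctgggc
Aars: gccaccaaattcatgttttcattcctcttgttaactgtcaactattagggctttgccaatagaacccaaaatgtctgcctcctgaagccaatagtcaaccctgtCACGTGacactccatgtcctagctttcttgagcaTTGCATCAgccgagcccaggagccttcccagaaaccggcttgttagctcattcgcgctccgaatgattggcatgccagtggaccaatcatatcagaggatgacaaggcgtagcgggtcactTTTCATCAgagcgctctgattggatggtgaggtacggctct

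Like Hspb8, the other chaperone with a heat shock core was not called with genotype, and unlike Hspb8 it was not called with muscle. Hspb1 had 50.6, 68.2 and 110.2 CPM in WT and 42.8, 61.5 and 71.3 in the double mutant, with overlap and a log2 fold change of -0.31 ± 0.17 (adjusted p = 0.41, edgeR). Its muscle coefficient was 0.03 ± 0.02 (adjusted p = 0.22).

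The 5 synthetase genes, which charge transfer RNAs with their amino acids, stayed close to WT. Their log2 fold changes ran from 0.03 to 0.28 in C3-PMP22, from -0.06 to 0.05 in Sipa1l2-/- and from -0.15 to 0.05 in the double mutant, none called. Gars, the glycyl synthetase mutated in axonal CMT, had 57.1, 65.5 and 73.9 CPM in WT and 56.8, 62.6 and 77.3 in the double mutant, with overlap. All 5 had muscle coefficients above 0, and Mars1 and Aars were called.

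**Figure D5:**
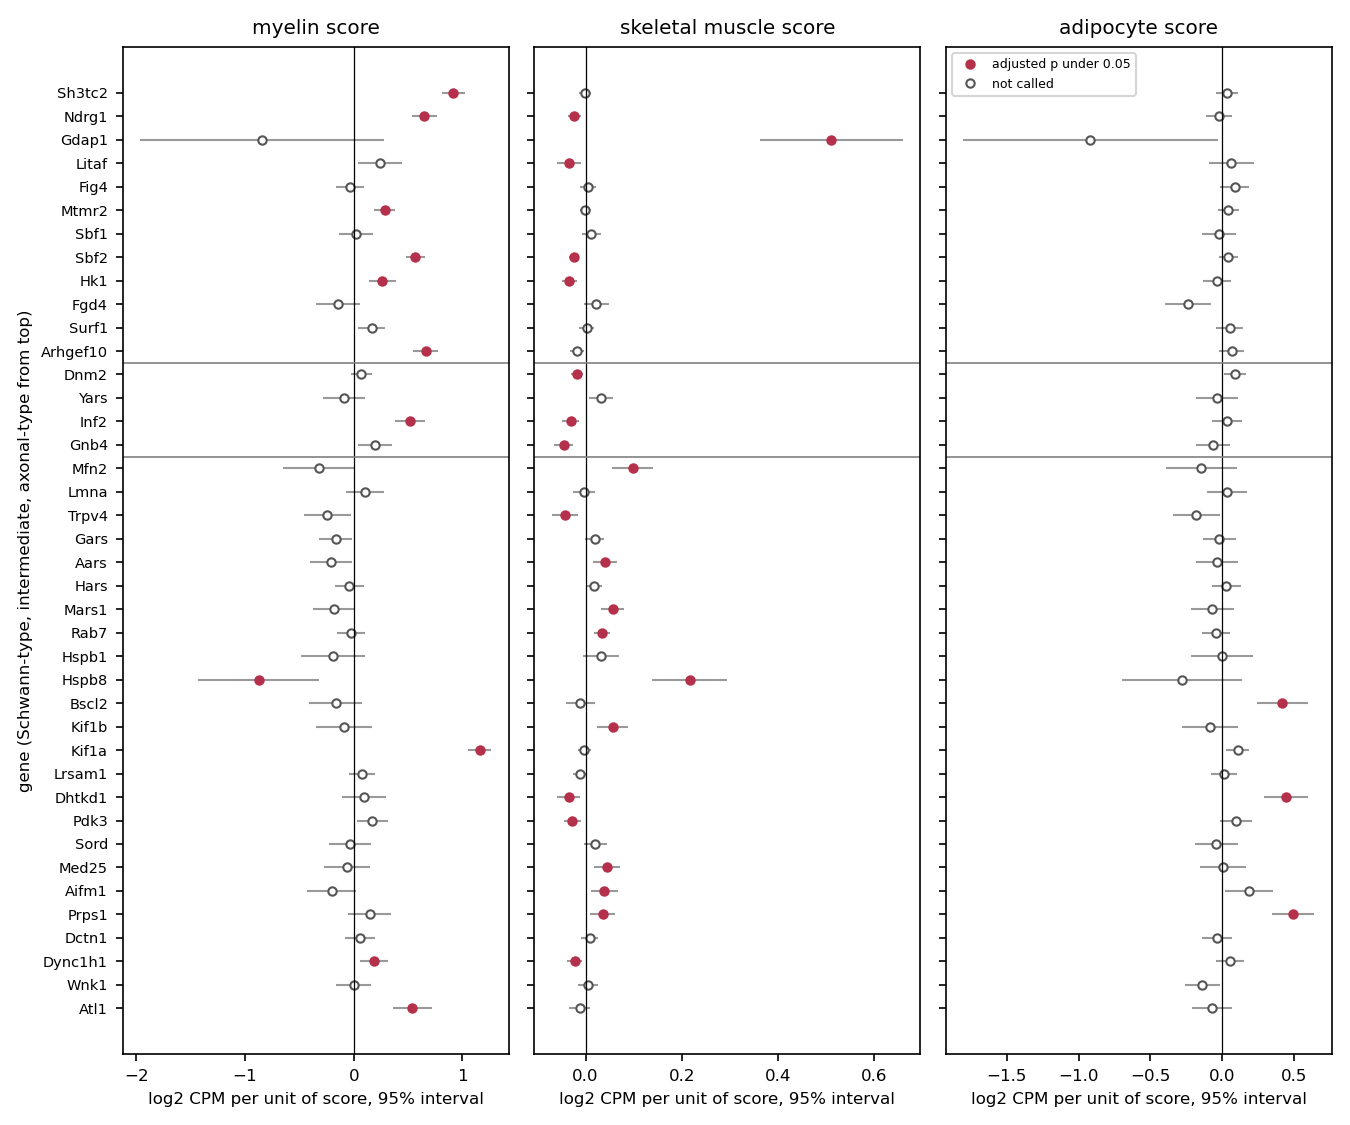
Coefficients of the 40 genes (vertical axis) for the myelin, skeletal muscle and adipocyte scores (horizontal axes, log2 change per unit of score) with 95% intervals, filled points marking an adjusted p under 0.05. Kif1a and Sh3tc2 lie farthest right in the myelin panel, Gdap1 in the muscle panel, and Prps1 in the adipocyte panel.

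For some members the scores left nearly all of the spread between libraries. With them in the fit, 103% of the residual variance was left for Sbf1, 104% for the lamin gene Lmna and 96.0% for the sorbitol enzyme Sord. Lmna, mutated in a recessive axonal form, had 126, 140 and 182 CPM in WT and 120, 155 and 194 in the double mutant. Sord had 70.4, 74.0 and 83.6 CPM in WT and 59.8, 80.1 and 88.9 in the double mutant. Both genes overlapped between genotypes, and neither was called with any score. Surf1 (a cytochrome oxidase assembly factor), Wnk1 (a kinase of ion transport), Dctn1 (the large dynactin subunit), Pdk3 (a pyruvate dehydrogenase kinase), Litaf and the synthetases Hars and Yars had log2 fold changes against WT between -0.19 and 0.15 in all 3 mutants.

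Some exons are shared with neighbours, and whether counting used strand is not given. By GENCODE M21, 14.3% of the exon bases of Aars lie in Exosc6 on the same strand and 14.6% of those of Atl1 in Sav1 on the opposite strand. For Hars, Surf1, Rab7, Bscl2 and Ndrg1 the largest such overlap is between 6.35% and 7.97%.

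The wider pathways around these genes were read from lists of non-member genes. In the double mutant against WT, 1 of 19 other motor and cytoskeleton genes was lower, against 0.863% of all tested genes, and none higher: Actr1a, the dynactin filament subunit, at -0.24 ± 0.06 (adjusted p = 0.030, edgeR). Of 17 phosphoinositide, 16 endosome sorting, 14 mitochondrial dynamics, 17 synthetase, 14 chaperone and 14 amino acid response genes tested, none was called in any of the 3 comparisons with WT. With the myelin score 9 of the 19 motor genes were higher and none lower, against 11.6% and 6.65% of all genes, led by the kinesins Kif5c (0.85), Kif5a (0.80) and Kif3a (0.49). With the muscle score 13 of 17 synthetase genes, 9 of 14 mitochondrial dynamics genes and 6 of 14 chaperone genes were higher, against 14.3% of all genes, and none of these lists had a lower gene (7.84% of all genes). Among the latter, the muscle heat shock gene Hspb3 had 0.79 and Hspb6 0.43.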

How the data were processed

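Trim Galore, FastQC and RSEM were used on the mouse genome GRCm38 (mm10), per the submitters' processing notes. The sources used here do not state their versions, the aligner or the annotation. The authors deposited expected counts per gene and library, rounded to whole numbers and not scaled between libraries. Columns were matched to samples through the column letters in the labels. Library totals were 11030976 to 16990990 counts (median 13260286).

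Low genes were removed with filterByExpr of edgeR, grouped by genotype, at a minimum count of 10 and a minimum total of 15. Counts were scaled with TMM and tested with edgeR's quasi-likelihood test over the 32 libraries, with genotype and the labelled sex as terms. Adjusted p-values are Benjamini-Hochberg values over 15403 genes, with a threshold of 0.05. CPM values are TMM-scaled, except the sums over marker genes, which are scaled to library totals without TMM. Scores are means over a marker list of centred log2 CPM (prior count 2), and their coefficients come from a fit with genotype, sex and the 3 scores together. The scripts were tested on simulated data. The tools were edgeR 4.0.16 and DESeq2 1.42.0 with limma 3.58.1 and data.table (1.17.8) in R 4.3.3, and pandas 2.3.3 in Python 3.11.15. Gene positions are from GENCODE M21.

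No measured value was used to pick the members, but earlier results of these data were known when members, lists and tests were set. Named with values by group are the 3 members with the smallest p in each comparison with WT, and by fold change or coefficient the 2 highest and 2 lowest of each genotype comparison and the 3 highest and 3 lowest called ones of each score, with the 5 highest and 5 lowest levels. Other members are named to account for all 40, and those by number series were chosen after their values were seen. Alternatives changed scaling, filter, sex term, test, libraries and added terms. The labels call libraries separate samples of a genotype, and p-values measure the spread between them.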

Additional observations from a re-analysis of the deposited data

Results flagged for a closer look

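Of 160 sets of 1 gene in 1 genotype, 10 held a library whose distance from the nearest other exceeded Dixon's 95% limit, and chance alone flags about 1 in 20 such sets. WT sample 3 was the highest of 7 for Mfn2 (289.7 CPM), Rab7 (332.6 CPM), Hspb8 (227.1 CPM) and Kif1b (593.4 CPM). Its muscle score, 3.05, was the highest in WT. Sipa1l2-/- sample 3 was the highest of 9 for Fgd4 (65.1 CPM) and Kif1b (658.4 CPM), with the highest muscle score of its group, 3.53. Sipa1l2-/- sample 7 was the highest for Prps1 (134.9 CPM), C3-PMP22 sample 6 for Gnb4 (59.4 CPM) and double mutant sample 2 for Gars (77.3 CPM). Double mutant sample 6 was the lowest for Trpv4 (9.64 CPM). The part of muscle tissue in these values was not tested.

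The effect of genotype differed between the number series, as the log2 fold change among plain numbers minus that among G numbers in edgeR's 8-group fit, for 10 members in the double mutant against WT. The differences were -1.88 for Sh3tc2, -1.34 for Ndrg1, -0.54 for Mtmr2, -1.08 for Sbf2, -1.09 for Arhgef10, -0.85 for Inf2, -1.96 for Kif1a and -1.48 for Atl1. They were positive for Bscl2 at 1.76 and Aifm1 at 1.11. In Sipa1l2-/- against WT the difference was called for Atl1 alone, at -1.30, with 1.11% of all genes called. The G series of Sipa1l2-/- holds 2 libraries. In the double mutant number series and labelled sex cannot be told apart.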

How the results depend on the processing

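Over 3134 alternative values, 490 of 517 counts of called members stayed within 1.5 times the reported count, and of the values for single genes 2488 kept direction and call, 83 lost and 13 gained a call, and 33 changed sign. The cause was not tested where none is named.

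For the double mutant against WT, which had 0 members called, DESeq2 called 2 (Prps1 and Dync1h1), a fit on the compared groups alone 1 (Prps1), a term for number series 1 (Dync1h1), the plain series alone 7 and the G series alone 1 (Bscl2). Leaving out 1 library gave 0 to 1: Dync1h1 without WT sample 1 or 3 or double mutant sample 7, and Prps1 without Sipa1l2-/- sample 7. With the sample number as a replicate block it was 1 (Dync1h1), and the series difference gave 4 in place of 10. Not all same-numbered libraries deviated together over the tested genes (correlations from -0.56 to 0.74). Correlations this mixed cannot decide whether the numbers pair samples. C3-PMP22 against WT had 1 (Bscl2) in the G series. The pooled transgenic comparison had 1 (Dync1h1) with the series term, 1 (Bscl2) in the G series and 3 (Ndrg1, Gnb4 and Kif1a) with the score terms, and the double mutant against Sipa1l2-/- had 2 (Kif1a and Prps1) with the latter. The adipocyte score called 16 when fitted alone, 5 with total counts, 0 in the G series and 3 to 5 without 1 library. The myelin score called 19 alone, 0 in the G series and 9 to 15 without 1 library. The muscle score called 9 in the plain series, 0 in the G series and 13 to 22 without 1 library. The series difference had 0 with the score terms and 3 to 12 without 1 library, and calls over all genes were not counted in those fits. The G series alone leaves 13 libraries. In it, the myelin and adipocyte scores called 0 of all genes and the muscle score 173. Fitted alone, the myelin score called 5172 of all genes and the adipocyte score 4186, against 2814 and 1277 in the main fit.

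Signs that changed, on the log2 scale, were these. With the score terms the series differences became 0.030 for Ndrg1, 0.10 for Arhgef10, 0.13 for Inf2 and 0.37 for Kif1a. With these terms Gdap1 became -0.014 in the pooled comparison, -0.12 in Sipa1l2-/- and -0.69 in the double mutant against WT, Hspb8 -0.12 in the pooled comparison and Dhtkd1 0.053 in Sipa1l2-/-. In the G series Dhtkd1 became -0.35 in the double mutant against Sipa1l2-/- and -0.38 against C3-PMP22, Bscl2 -0.47 against C3-PMP22, Kif1a 0.31 in the double mutant, Gdap1 -0.58 and Dync1h1 0.066 in Sipa1l2-/-, and the interaction of Hspb8 2.66e-05. In the plain series the C3-PMP22 values became -0.093 for Hspb8, -0.12 for Fgd4, -0.37 for Gdap1 and 0.12 for Bscl2, those of Sipa1l2-/- 0.029 for Dnm2 and 0.31 for Bscl2, and Dnm2 in the double mutant 0.026. There, Gdap1 became -0.17 in the pooled comparison, 0.39 in the interaction and 0.85 in the double mutant against C3-PMP22, and Hspb8 0.42 in the interaction and 0.53 in the latter. Without C3-PMP22 samples 7 and 8 Hspb8 became -0.021 in C3-PMP22, 0.13 in the interaction and 0.32 in the double mutant against C3-PMP22, where Gdap1 became 0.92. Gdap1 in Sipa1l2-/- against WT ran from -0.57 without Sipa1l2-/- sample 3 to 2.52 without WT sample 3. With total counts in place of TMM the median over all genes in C3-PMP22 against WT moved from 0.04 to -0.12.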

Other observations

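In genes outside the list that act beside its members, the neurofilament heavy chain Nefh, a defining protein of large axons, was lower in the double mutant than in Sipa1l2-/- (log2 fold change -1.50, adjusted p = 0.022, edgeR) and lower in both transgenic genotypes than in both others (-0.96, adjusted p = 0.020). Nefh was also higher with the myelin score (0.69, adjusted p = 0.049, edgeR), and the median of that score was lowest in the double mutant (-0.62). The part of the myelin score in the genotype differences of Nefh was not tested. Dync1i1, an intermediate chain of the dynein motor, was higher in both transgenic genotypes (1.02, adjusted p = 0.038). With the myelin score 4 of 26 further neuropathy genes were higher and 1 lower, shares near the 11.6% and 6.65% of all tested genes, among the higher the peptidase Mme (0.68) and Sptlc2 (0.36), a subunit of the enzyme that starts sphingolipid synthesis. Of 14 amino acid response genes 4 were higher with that score (11.6% of all genes), led by the amino acid transporter Slc7a5 (1.196), and with the adipocyte score 4 were higher (5.8% of all genes) and 1 lower (2.49%), among the higher the serine synthesis genes Phgdh (0.53) and Psat1 (0.40).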
